A study of Mus musculus with 2 samples.

Results

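The 36 genes described here are a fixed list of hepatic stellate cell, mural cell and matrix genes. They were chosen by symbol, not by a threshold on measured values, and make up 36 of the 43346 genes listed in each library. All 36 were found by stable gene identifier: 12 genes of quiescent stellate cells, 4 genes of mural cells and 20 genes used as readouts of fibrosis. The fibrosis readouts hold 9 collagen chains, 5 other matrix proteins, 5 genes of matrix turnover and vimentin. The samples are 2 libraries of 1 group, labelled biological replicates 1 and 2, from liver of C57BL/6J mice aged 8 weeks, an inbred laboratory strain. No mutation or treatment is named for either library. Tissue of male and female littermates was pooled, the health state is labelled unknown, and the same donor identifier stands on both libraries. No label says that separate animals lie behind the replicates, so p-values below reflect only how far these 2 samples differ, which may be technical.

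Hepatic stellate cells lie between hepatocytes and the sinusoidal endothelium, where they store vitamin A in lipid droplets. In injured liver they activate: they lose their retinoid stores, gain a contractile apparatus with smooth muscle actin, and become the main source of fibrillar collagen in scar tissue. In healthy liver the cells are quiescent, and the collagen they lay down is a sparse meshwork in the space of Disse together with basement membrane components that endothelial cells also make. Mural cells, the smooth muscle cells and pericytes of vessel walls, share several of these genes. Metalloproteinases degrade the matrix, and tissue inhibitors of metalloproteinases (TIMPs) hold them back.

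The libraries were strand-specific pairs of 76-nucleotide reads of poly-A RNA over 200 nucleotides long, depleted of ribosomal RNA and given external spike-in RNAs. They held 60770411 and 61688916 estimated reads in replicates 1 and 2. Of the reads on genes, the 36 genes held 61859 (0.104%) in replicate 1 and 70731 (0.117%) in replicate 2. Hepatocyte markers were all present, 10 of 10 at 1 TPM (the transcript abundance scaled by length and depth) or more in both libraries, with albumin (Alb) at 32113 TPM in replicate 1, against 34763 TPM in replicate 2. At this depth 1 read on 1000 bases of transcript was worth 0.0205 TPM in replicate 1 versus 0.0204 TPM in replicate 2, and every one of the 36 genes had reads in both libraries.

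At 1 TPM or more in both libraries stood 32 of the 36 (88.9%), against 24.7% of all genes listed. Together the 36 genes held 752 TPM in replicate 1, against 797 TPM in replicate 2, a mean of 774 ± 31.4 TPM (SD, n = 2) or 0.0774% of library TPM on average. A few genes made up most of this sum. Ecm1, encoding extracellular matrix protein 1, held 40.1% of it, and Ecm1, Sparc, Dcn and Bgn together held 75.6%. The median gene of the set stood at 4.72 TPM: 8 genes had a mean of 10 TPM or more, 24 had 1 to 10 TPM, and 4 (Pdgfra, Timp1, Myh11 and Lox) stayed under 1 TPM.

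**Figure D1:**
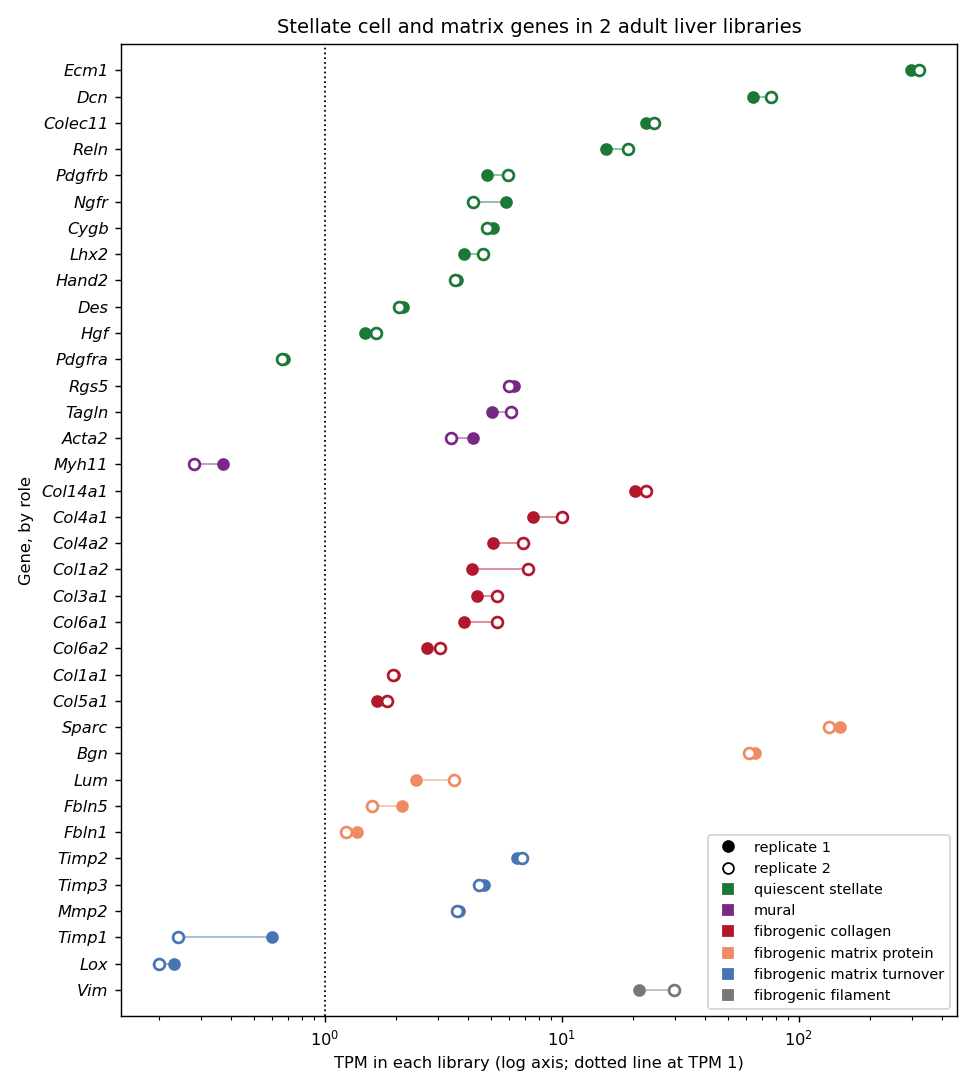
TPM (log axis) of each of the 36 genes in replicate 1 (filled points) and replicate 2 (open points), grouped by role and ordered by mean; the dotted line marks 1 TPM. Ecm1 stands alone at 298 and 323 TPM, Sparc, Dcn and Bgn follow between 61.6 and 149 TPM, most of the others lie between 1 and 10 TPM, and 4 genes lie left of the line.

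The libraries were compared gene by gene with a two-sided exact conditional binomial test on reads scaled by edgeR's TMM factors, with Benjamini-Hochberg adjustment over all 14533 genes that had at least 20 reads in both libraries together. This test compares 2 libraries, not 2 conditions, and asks only whether they differ by more than counting error. All 36 genes entered it and 20 passed at an adjusted p of 0.05, 9 higher in replicate 1 and 11 higher in replicate 2. Over all genes 57.0% passed, 29.4% higher in replicate 1 and 27.7% higher in replicate 2, so the share among the 36 genes is close to the background. The differences were small: 34 of the 36 genes lay within 1.5-fold, while 20.7% of all genes tested lay beyond it. All genes tested include many with few reads, where counting error is large. Of the 10694 tested genes at 1 TPM or more in both libraries, where most of the 36 stand, 1159 lay beyond it. The median size of the log2 ratio was 0.16 over the 36 genes, 0.26 over all genes tested and 0.21 over those at 1 TPM or more. The exceptions among the 36 were Ngfr, at 1.51-fold, and Timp1, at 2.55-fold on 19 and 8 reads, both higher in replicate 1. The exact test of edgeR adds a common spread between replicates (a biological coefficient of variation of 24.2%). This spread was estimated from the same 2 libraries taken as 1 group. It therefore takes in the difference under test, and few genes can pass. With it 0 of the 36 genes passed and 0 had an unadjusted p under 0.05. Over all genes 162 passed (1.11%) and 851 had an unadjusted p under 0.05. No conclusion on agreement of the libraries is drawn from these counts.

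Directions near zero depended on the scaling. The median log2 ratio (replicate 1 over replicate 2) of all genes was 0.00 with TMM, and scaling by total reads or by spike-in reads moved it to -0.13 and -0.15. The median of the 36 genes was 0.06 with TMM, -0.07 with total reads and -0.10 with spike-in reads. The split of calls moved from 9 higher in replicate 1 and 11 higher in replicate 2 to 3 and 13 with total reads and to 3 and 16 with spike-in reads. Over all genes the share of calls higher in replicate 2 was 48.5% with TMM, 69.4% with total reads and 73.6% with spike-in reads. The call and direction of 14 of the 36 genes held under TMM, DESeq2 size factors, total reads and spike-in reads. Ngfr, Acta2 and Fbln5 were higher in replicate 1, and Ecm1, Dcn, Reln, Pdgfrb, Col1a2, Col3a1, Col4a1, Col4a2, Col6a1, Lum and Vim were higher in replicate 2. Over all 14533 genes tested, 2274 held as higher in replicate 1 and 4019 as higher in replicate 2. The 36 genes thus did not hold their calls more often than genes at large.

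**Figure D2:**
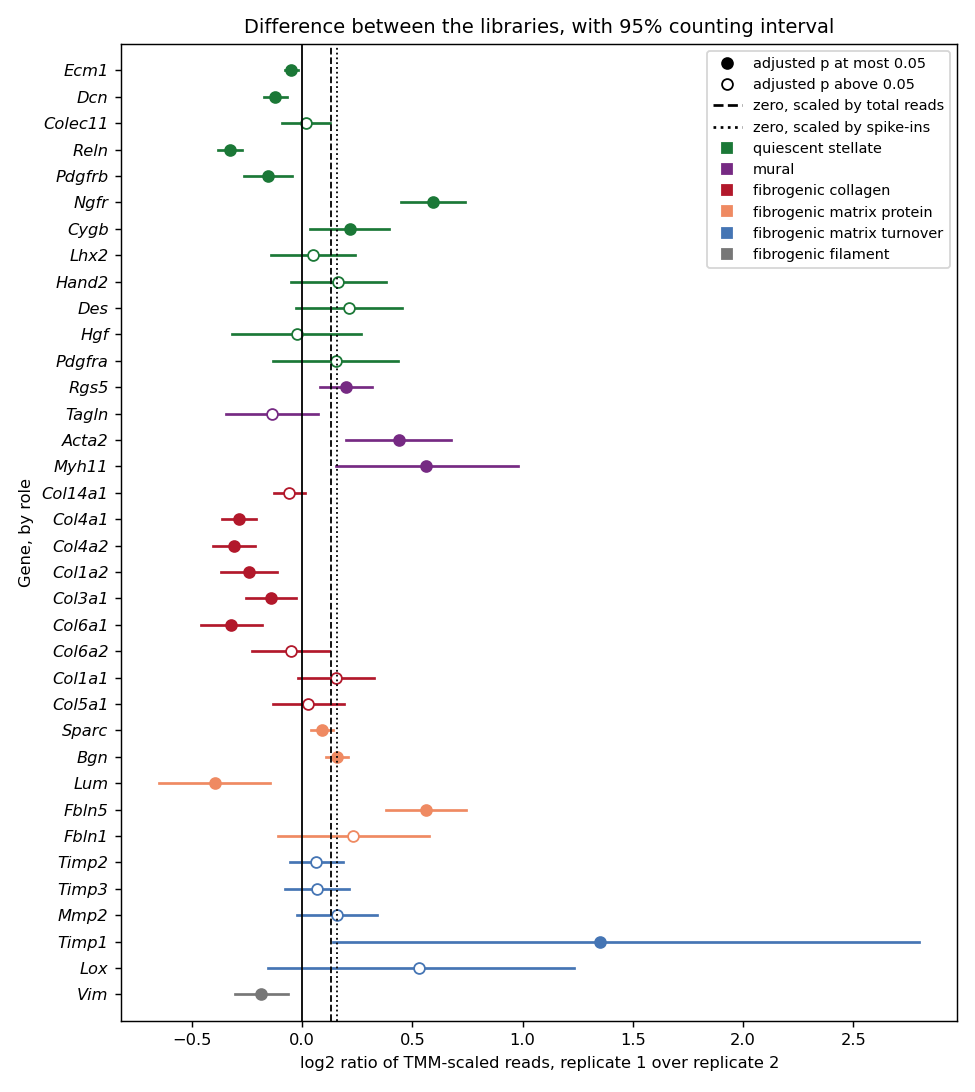
Log2 ratio of TMM-scaled reads, replicate 1 over replicate 2, for each gene, with its 95% interval from counting error (horizontal lines); filled points passed the exact test. The dashed and dotted lines show where zero would fall with scaling by total reads and by spike-in reads; Ngfr, Acta2 and Fbln5 stay right of both lines with their whole interval, and the 5 collagens that passed lie left of zero.

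Genes of quiescent stellate cells spanned 0.67 to 310 TPM. Ecm1, a secreted glycoprotein that in mouse liver keeps latent TGF-beta inactive and that hepatocytes also make, had 298 TPM in replicate 1 versus 323 TPM in replicate 2, on 16520 and 18998 reads. It is on chromosome 3 (95734147 to 95739569, minus strand, GRCm38). With TMM its log2 ratio of -0.05, a difference of 1.04-fold, passed the exact test (adjusted p = 0.0028). The ratio was -0.18 with total reads and -0.21 with spike-in reads, so its size depended on the scaling. Decorin (Dcn, chromosome 10, 97479609 to 97518143, plus strand), a small leucine-rich proteoglycan that binds collagen fibrils and TGF-beta, had 63.9 TPM in replicate 1, against 76.3 TPM in replicate 2. It was 1.09-fold higher in replicate 2 (log2 ratio -0.12, adjusted p = 1.7e-05). Collectin 11 (Colec11), a soluble lectin of the complement pathway, had 22.7 and 24.5 TPM in replicates 1 and 2, and its log2 ratio of 0.02 did not pass (adjusted p = 0.82).

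Reelin (Reln), a large secreted glycoprotein used as a stellate cell marker, had 15.3 TPM in replicate 1 versus 19.0 TPM in replicate 2 and was 1.26-fold higher in replicate 2 (adjusted p = 2.1e-30). The difference rests on 4494 reads in replicate 1 and 6266 reads in replicate 2. Cell surface receptors of the set went both ways. The PDGF receptor beta (Pdgfrb), which receives the mitogen of stellate cells, had 4.82 TPM in replicate 1, against 5.91 TPM in replicate 2 and was 1.11-fold higher in replicate 2 (adjusted p = 0.010). The neurotrophin receptor p75 (Ngfr) had 5.80 TPM in replicate 1 versus 4.23 TPM in replicate 2, on 922 and 679 reads, and was 1.51-fold higher in replicate 1 (log2 ratio 0.59, 95% interval 0.45 to 0.74, adjusted p = 2.3e-15). The PDGF receptor alpha (Pdgfra), the related receptor, stayed at 0.67 TPM in replicate 1, against 0.66 TPM in replicate 2.

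The remaining quiescent genes were low and close between libraries. Cytoglobin (Cygb), a globin used as a stellate marker, had 5.11 TPM in replicate 1 versus 4.83 TPM in replicate 2. It passed with TMM (log2 ratio 0.22, adjusted p = 0.032) but not with total reads. The transcription factors Lhx2, whose loss in mice leads to a fibrotic liver, and Hand2, a basic helix-loop-helix factor, had 3.86 and 3.62 TPM in replicate 1 against 4.64 and 3.54 TPM in replicate 2, and neither passed. Desmin (Des), the intermediate filament that marks rodent stellate cells, had 2.13 TPM in replicate 1, against 2.05 TPM in replicate 2. Hepatocyte growth factor (Hgf), the stellate-derived ligand of the Met receptor, had 1.47 TPM in replicate 1 versus 1.64 TPM in replicate 2, and neither Des nor Hgf passed.

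Mural genes had a median of 4.69 TPM, near the 4.72 TPM of the whole set. The regulator of G protein signalling Rgs5, a pericyte marker, had 6.25 TPM in replicate 1, against 5.98 TPM in replicate 2 and passed with a log2 ratio of 0.20 (adjusted p = 0.0021). Smooth muscle actin (Acta2, chromosome 19, 34241090 to 34255590, minus strand), the usual mark of stellate cell activation, had 4.22 TPM in replicate 1 versus 3.42 TPM in replicate 2, on 328 and 269 reads. It was 1.35-fold higher in replicate 1 (log2 ratio 0.44, 95% interval 0.20 to 0.68, adjusted p = 6.6e-04). Transgelin (Tagln), an actin-binding protein of smooth muscle, had 5.05 and 6.07 TPM in replicates 1 and 2 and did not pass, with a ratio on the other side of zero from Acta2. Smooth muscle myosin (Myh11) had 0.37 and 0.28 TPM in replicates 1 and 2, on 117 and 88 reads, and was 1.47-fold higher in replicate 1 with TMM (adjusted p = 0.014). Of the 4 mural genes 3 were thus higher in replicate 1 with TMM. With total reads or spike-in reads 1 was higher in replicate 1, Acta2, and 1, Tagln, was higher in replicate 2.

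All 9 collagen chains reached 1 TPM in both libraries, and they summed to 51.7 TPM in replicate 1, against 64.0 TPM in replicate 2. Col14a1, a fibril-associated collagen, led with 20.3 TPM in replicate 1 versus 22.5 TPM in replicate 2. The basement membrane chains came next: Col4a1 had 7.53 TPM in replicate 1, against 9.97 TPM in replicate 2, and Col4a2 5.12 TPM in replicate 1 versus 6.87 TPM in replicate 2. The fibrillar chains of scar tissue were lower on average, and Col1a1, which pairs with Col1a2 in type I collagen, was second lowest of the 9 at 1.95 TPM in replicate 1, against 1.93 TPM in replicate 2. Col1a2 had 4.19 TPM in replicate 1 versus 7.18 TPM in replicate 2, and Col3a1, the homotrimeric type III collagen, 4.40 TPM in replicate 1, against 5.30 TPM in replicate 2. Type VI collagen, a microfibrillar form, had 3.86 and 5.31 TPM of Col6a1 and 2.69 and 3.06 TPM of Col6a2 in replicates 1 and 2. Col5a1, which sets fibril diameter, was lowest with 1.66 TPM in replicate 1 versus 1.83 TPM in replicate 2.

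Of these 9 chains 5 passed the exact test, near the 57.0% of all genes that did, and all 5 were higher in replicate 2. Col4a1 was 1.22-fold higher there (2326 reads in replicate 1, 3153 in replicate 2, adjusted p = 1.7e-12) and Col4a2 1.24-fold (1536 reads in replicate 1, 2116 in replicate 2, adjusted p = 6.3e-10). Col6a1 was 1.25-fold higher (adjusted p = 1.3e-05), Col1a2 1.18-fold (adjusted p = 4.3e-04) and Col3a1 1.10-fold (adjusted p = 0.028). These 5 calls held under all 4 scalings, while 6 of 9 passed with total reads, which added Col14a1, and 7 with spike-in reads, which added Col6a2 as well. Col14a1, Col6a2, Col1a1 and Col5a1 did not pass with TMM, and the chains' median log2 ratio was -0.14. The TPM of Col1a2 differed more between libraries than its reads did: its log2 ratio was -0.78 in TPM and -0.37 in reads scaled by the library total. The mean transcript length assigned to Col1a2 in replicate 2 was 76.9% of that in replicate 1, where the 850-base isoform Col1a2-205 took 13.7% of its TPM in replicate 1 and 38.8% in replicate 2, on 18.5 and 92.0 estimated reads. For the other 35 genes the 2 log2 ratios differed by less than 0.25.

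Partner chains are assembled in fixed proportions, so their transcript ratios were taken within each library. Col4a1 over Col4a2 was 1.47 in replicate 1 and 1.45 in replicate 2 (TPM ratio). Col6a1 over Col6a2 was 1.43 in replicate 1 and 1.74 in replicate 2. Col1a1 over Col1a2 was 0.465 in replicate 1 and 0.269 in replicate 2, and 0.549 in replicate 1 and 0.417 in replicate 2 when reads were divided by the length of the longest isoform. In both libraries and by both measures the alpha 1 chain of type I collagen was thus below its alpha 2 partner, while the protein holds more of the alpha 1 chain. The ratio of the type IV chains varied least between libraries, with an SD of 0.0138 on a mean of 1.46. The SD was 0.139 on a mean of 0.367 for type I and 0.212 on a mean of 1.59 for type VI. Relative to its mean, type I thus varied most, and its SD was 0.0933 on a mean of 0.483 by longest isoform.

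The type IV pair also shares its promoter. Col4a1 (chromosome 8, 11198423 to 11312826, minus strand) and Col4a2 (11312805 to 11449287, plus strand) run away from each other, and their annotated start regions overlap by 22 bases. Their log2 ratios were -0.29 and -0.31 and their intervals overlapped. The RefSeq promoter window of Col4a2 (GRCm38.p6, chr8:11312555-11312854, plus strand, 250 bases before the start to 50 after) also holds the start of Col4a1, 21 bases from that of Col4a2 and on the other strand. It is printed because it lies across the starts of 2 genes that were both higher in replicate 2, with GC boxes (GGGCGG) and a CCAAT box (CCAAT), searched on both strands and not overlapping, in capitals.
Col4a2 promoter: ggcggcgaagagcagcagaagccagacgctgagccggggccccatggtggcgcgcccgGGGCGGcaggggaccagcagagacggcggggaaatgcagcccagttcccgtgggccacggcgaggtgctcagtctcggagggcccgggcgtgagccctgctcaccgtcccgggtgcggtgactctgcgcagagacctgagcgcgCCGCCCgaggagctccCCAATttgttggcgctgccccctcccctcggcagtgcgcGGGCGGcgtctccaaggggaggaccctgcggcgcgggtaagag
The window held 3 GC boxes, 1 CCAAT box and no TATA box (TATAAA), and 73.7% of its bases were G or C, against a median of 52.7% over all 32851 promoter windows. A GC box was found in 35.7% of all windows, a CCAAT box in 37.4% and a TATA box in 13.6%. Of the 31 windows matched to 26 of the 36 genes, 18 held a GC box (58.1%), 10 a CCAAT box (32.3%) and 3 a TATA box (9.68%), the last in Col3a1, Vim and Ecm1. These matches describe letters only.

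A sequence shared by many of the collagens lies after their stop codons. The miR-29 family is known from mouse and human fibrosis to bind collagen mRNAs, and its members share 1 seed (bases 2 to 8, in capitals in the RefSeq mature sequences).
mmu-miR-29a-3p: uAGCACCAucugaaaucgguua
mmu-miR-29b-3p: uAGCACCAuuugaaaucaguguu
mmu-miR-29c-3p: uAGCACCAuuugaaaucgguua
The 7 bases that pair with this seed (TGGTGCT) were searched after the stop codon of each gene's coding transcript with the most reads (GENCODE M21, GRCm38). They occurred in 6 of 9 collagens (66.7%), in 4 of the 27 other genes of the set (14.8%) and in 1375 of 10100 other protein-coding genes at 1 TPM or more in both libraries (13.6%). Per 10000 bases searched there were 10.5 matches in the collagens, 1.92 in the others of the set and 1.16 in the other protein-coding genes. The median length searched was similar, 959 bases in collagens and 900.5 bases in the other protein-coding genes. The first match of each of the 6 collagens is shown with its neighbouring bases, sense strand, pairing bases in capitals.
Col1a1 (chr11:94952538-94952544, plus strand): gtgggaaggaatttcTGGTGCTatagaagc
Col3a1 (chr1:45348982-45348988, plus strand): ttcaaaatgtctcaaTGGTGCTataataaa
Col4a1 (chr8:11199762-11199768, minus strand): gccaccgtcacaacaTGGTGCTactccccc
Col4a2 (chr8:11448359-11448365, plus strand): gtgggaaggccacgtTGGTGCTtatccttc
Col5a1 (chr2:28038004-28038010, plus strand): ataactatgaacattTGGTGCTgaattttt
Col6a2 (chr10:76596171-76596177, minus strand): tctccatcccatctgTGGTGCTaataggac
Col5a1 held 4 matches and Col4a2 held 2, and the first match lay within 50 bases of the stop codon in Col4a1, Col4a2 and Col6a2. No match was found in Col1a2, Col6a1 or Col14a1. Outside the collagens the matches were in Lox (3), Pdgfra (2), Pdgfrb (1) and Mmp2 (1). Of the 6 collagens with a match 3 were higher in replicate 2, and of the 3 without one 2 were. MicroRNAs are shorter than the RNA selected here, so their level was not measured.

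**Figure D3:**
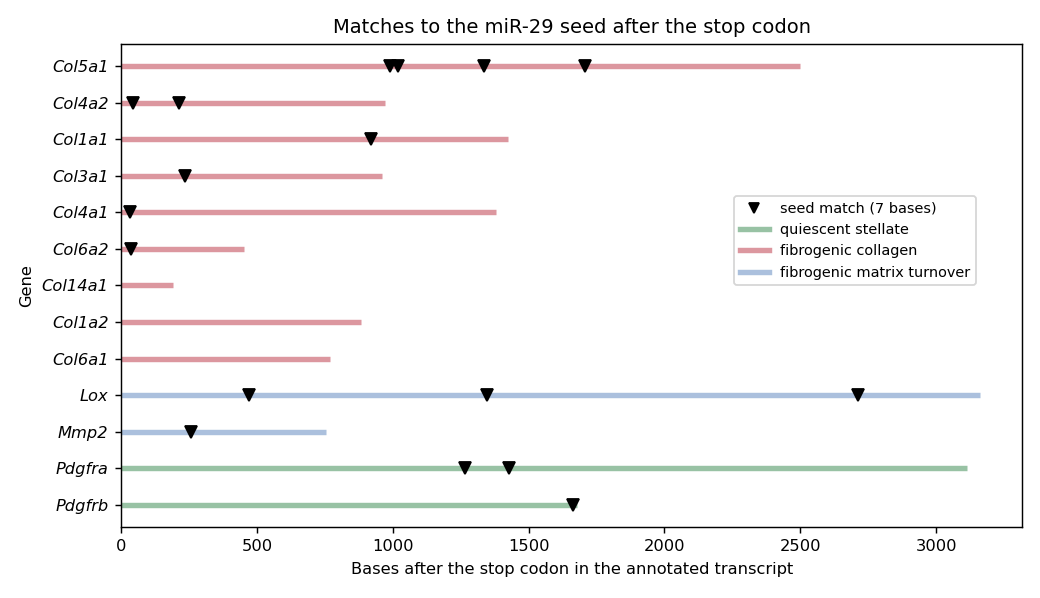
Positions of the 7-base match to the miR-29 seed (triangles) along the bases after the stop codon (coloured lines, drawn to length) in the 9 collagens and in the 4 other genes with a match. Col5a1 has 4 matches, the first match of Col4a1, Col4a2 and Col6a2 is close to the stop codon, and Col14a1, Col1a2 and Col6a1 have none.

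The matrix proteins other than collagens held some of the highest and lowest levels of the set. Osteonectin (Sparc, chromosome 11, 55394500 to 55423183, minus strand), a collagen-binding glycoprotein, had 149 TPM in replicate 1, against 134 TPM in replicate 2. Its reads ran 1.06-fold higher in replicate 1 with TMM (6060 and 6322 reads in replicates 1 and 2, adjusted p = 0.0012), but did not pass with total reads, and with spike-in reads it passed as higher in replicate 2 (log2 ratio -0.07). Biglycan (Bgn), a proteoglycan related to decorin, had 65.6 TPM in replicate 1 versus 61.6 TPM in replicate 2 and passed with TMM (log2 ratio 0.16, adjusted p = 3.2e-09). It did not pass with total reads or spike-in reads, and with the spike-ins its ratio was zero to 2 decimals. Lumican (Lum), a keratan sulphate proteoglycan, had 2.42 TPM in replicate 1, against 3.50 TPM in replicate 2 and was 1.31-fold higher in replicate 2 (adjusted p = 0.0039). Fibulin 5 (Fbln5), which builds elastic fibres, went the other way, with 2.12 TPM in replicate 1 versus 1.58 TPM in replicate 2, 1.48-fold higher in replicate 1 (adjusted p = 3.4e-09). Fibulin 1 (Fbln1) had 1.36 and 1.23 TPM in replicates 1 and 2 and did not pass. Dcn and Lum lie 46984 bases apart on chromosome 10, both on the plus strand, and both were higher in replicate 2.

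Genes of matrix turnover were low. The inhibitors Timp2 and Timp3 had 6.45 and 4.68 TPM in replicate 1 against 6.78 and 4.45 TPM in replicate 2, and the gelatinase Mmp2 had 3.67 TPM in replicate 1, against 3.62 TPM in replicate 2. None of these 3 passed the test. Timp1, the inhibitor induced in injured liver, was near the lower end with 0.60 TPM in replicate 1 versus 0.24 TPM in replicate 2. It passed with TMM on 19 and 8 reads (log2 ratio 1.35, 95% interval 0.14 to 2.80, adjusted p = 0.047), and not with total reads. Lysyl oxidase (Lox), which cross-links collagen and is also raised in fibrosis, had the lowest mean of all 36 genes, with 0.23 TPM in replicate 1, against 0.20 TPM in replicate 2 on 43 and 33 reads. Timp1 lies inside Syn1 and Timp3 inside Syn3, each on the opposite strand. Syn1 had 26 and 17 reads in replicates 1 and 2, a similar number to Timp1, and the libraries are labelled strand-specific. Vimentin (Vim), a filament protein of mesenchymal, endothelial and blood cells alike, had 21.2 TPM in replicate 1 versus 29.7 TPM in replicate 2 and was 1.14-fold higher in replicate 2 (adjusted p = 0.0057).

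Most of the TPM of Vim, Sparc and Col14a1 was assigned to short or non-coding isoforms. The share of genes led by such isoforms in replicate 1 was not above that of other genes. Of the 32 genes at 1 TPM or more in both libraries, 22 have several annotated isoforms, and in 10 of these (45.5%) 1 isoform held at least 90% of the gene's TPM in both libraries, against 22.4% of 7548 protein-coding genes with several isoforms. Col1a1, Col3a1, Col4a1, Col4a2, Col6a1, Pdgfrb and Timp2 are of this kind. The same isoform led in both libraries in 21 of 22 genes (95.5%, against 87.6% of the protein-coding genes). The exception was Reln, led by the retained intron Reln-203 in replicate 1 (34.56% of TPM) and by the full-length coding Reln-207 in replicate 2 (36.25%). By the leading isoform in replicate 1, a non-coding isoform led in 2 of 22 (9.09%, against 13.0%), Vim and Reln. An isoform under 0.5 of the longest length led there in 4 of 22 (18.2%, against 21.7%), again with Reln among them. Vim was led by Vim-204, annotated as a retained intron of 926 bases, with 58.5% of its TPM in replicate 1 and 62.0% in replicate 2. Its non-coding isoforms together held 70.2% of TPM in replicate 1 and 72.9% in replicate 2, and 49.4% and 58.6% of its reads. Sparc was led by Sparc-206, a coding fragment of 640 bases, with 42.1% in replicate 1 and 40.6% in replicate 2, followed by the retained intron Sparc-205. The full-length transcripts Sparc-201 and Sparc-202 held 53.6% of Sparc reads in replicate 1 and 63.0% in replicate 2. In Reln non-coding isoforms held 56.0% of TPM in replicate 1 and 48.7% in replicate 2 but 17.5% and 13.9% of reads.

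Because a short isoform turns each read into more TPM, the order of the most abundant genes depended on the length used. With reads divided by the length of the longest isoform and scaled to the same total, Ecm1 stayed first at 256 ± 23.1 on that scale. Dcn came next at 84.8 ± 10.6 and Sparc after it at 72.5 ± 1.61 (SD, n = 2 each). By TPM, Sparc came next after Ecm1 at 142 ± 10.7 and Dcn followed at 70.1 ± 8.80, where Dcn and Bgn (63.6 ± 2.87) overlapped between libraries. Vim moved from the fifth place to the ninth. Its TPM was 2.50 times its level by longest isoform, that of Sparc 1.95 times and that of Col14a1 1.67 times, where the 2085-base isoform Col14a1-204 held 73.6% of TPM in replicate 1 and 71.6% in replicate 2. The median of this factor over the 36 genes was 0.828.

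**Figure D4:**
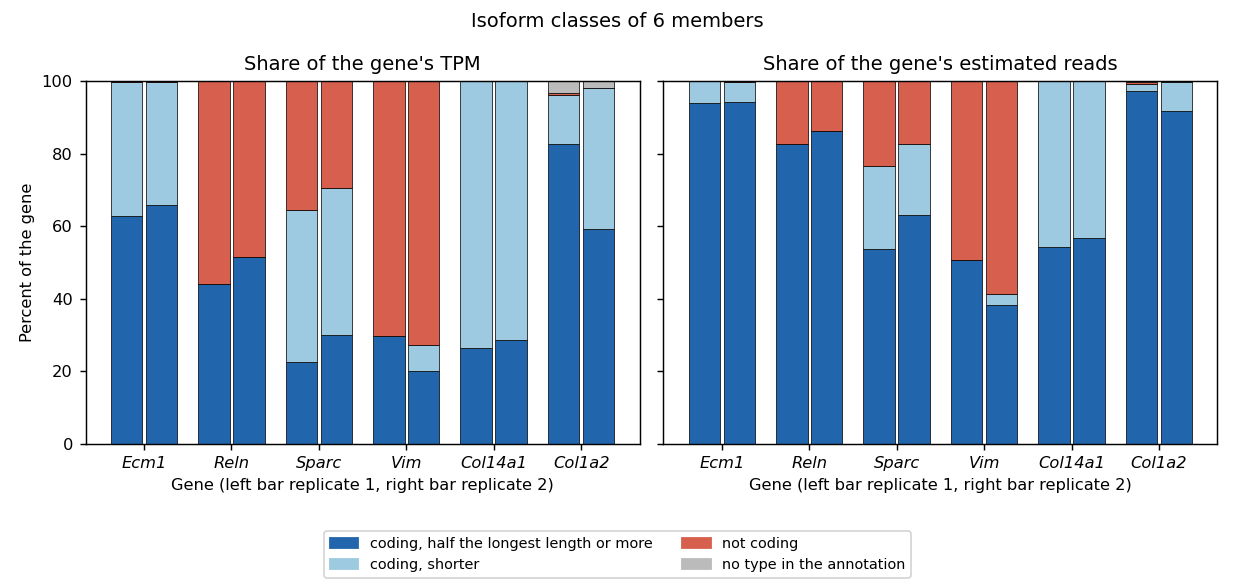
Shares of the gene's TPM (left) and of its estimated reads (right) held by long coding isoforms (at least 0.5 of the longest length), shorter coding isoforms, non-coding isoforms and 1 isoform without a type in the annotation, for 6 genes; left bars are replicate 1 and right bars replicate 2. Non-coding isoforms hold 70.2% and 72.9% of Vim TPM, and the short coding share of Col1a2 TPM is 13.7% in replicate 1 and 38.8% in replicate 2.

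Markers of other liver cells were counted beside these values, since bulk tissue cannot tell fewer cells of a type from less RNA per cell. Sinusoidal endothelial markers, whose cells also make type IV collagen, summed to 143 TPM in replicate 1, against 209 TPM in replicate 2. Of these 10 genes 8 were higher in replicate 2 and 0 in replicate 1, with a median log2 ratio of -0.48, and the same 8 held under all 4 scalings. Kupffer cell markers, of the resident macrophages, summed to 221 TPM in replicate 1 versus 369 TPM in replicate 2, and 10 of 10 were higher in replicate 2 under all 4 scalings (median -0.71). The 11 genes of the set picked as higher in replicate 2 under all 4 scalings share this direction by that choice. They are the 5 collagens, Vim, Ecm1, Dcn, Reln, Pdgfrb and Lum. Both marker shifts were larger than the collagens' median of -0.14, and the median of all 36 genes was 0.06 with TMM. Mesothelial markers, which lead with Upk3b (2.68 TPM in replicate 1, 1.66 TPM in replicate 2) and Msln (1.33 TPM in replicate 1, 0.66 TPM in replicate 2), summed to 5.71 and 3.68 TPM in replicates 1 and 2. They were higher in replicate 1 in 4 of 6 genes with TMM and in 2 of 6 under all 4 scalings. Ngfr, Fbln5 and Acta2, picked as higher in replicate 1 under all 4 scalings, share this direction by that choice. It was not particular to mesothelial markers. Under all 4 scalings, hepatocyte markers had 5 genes higher in replicate 1 and 1 in replicate 2. Cholangiocyte markers had 2 and 0, and stellate retinoid genes had 2 and 1. The part of these cell types in the differences was not tested.

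Other mesenchymal markers went no single way. Smooth muscle and pericyte markers outside the set, led by Mylk (14.4 TPM in replicate 1, 20.5 TPM in replicate 2) and Myl9 (5.15 TPM in replicate 1, 3.92 TPM in replicate 2), had 1 of 10 genes higher in each library with TMM, and with total reads or spike-in reads 0 in replicate 1 and 1 in replicate 2. Portal fibroblast markers, led by Entpd2 (4.69 TPM in replicate 1, 8.31 TPM in replicate 2) and Mfap4 (5.42 TPM in replicate 1, 3.64 TPM in replicate 2), had 3 of 7 tested genes higher in replicate 1 and 2 higher in replicate 2 with TMM, 3 and 3 with total reads and 3 and 4 with spike-in reads. Genes of stellate retinoid handling were led by the retinal reductase Dhrs3 at 194 TPM in both libraries. Of the 4 tested, 3 were higher in replicate 1 and 1 in replicate 2 with TMM or total reads. With spike-in reads 2 were higher in replicate 1 and 1 in replicate 2. Lrat, the enzyme that esterifies retinol for storage and a defining gene of quiescent stellate cells, had 6.68 TPM in replicate 1 versus 2.97 TPM in replicate 2 (log2 ratio 1.31). Stra6, the receptor for retinol-binding protein, had 0 reads in both libraries, which allows up to 3 reads in each. Lrat and Stra6 were named after their values were seen.

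**Figure D5:**
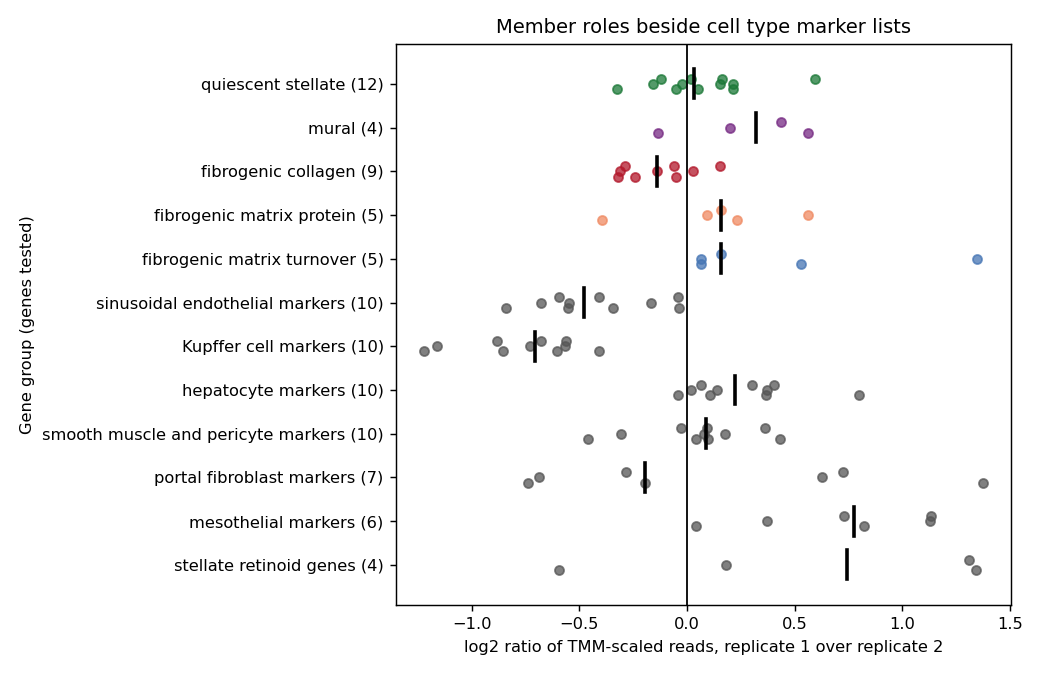
Log2 ratio of TMM-scaled reads, replicate 1 over replicate 2, of each tested gene (points) by role in the set (colours) and in 7 marker lists (grey); black bars are medians. Endothelial and Kupffer markers lie left of zero with medians of -0.48 and -0.71, the collagens have a median of -0.14, and mesothelial markers lie right of zero with a median of 0.78.

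Collagen processing genes, 14 of 15 at 1 TPM or more in both libraries, summed to 828 TPM in replicate 1, against 813 TPM in replicate 2. They were led by P4hb, a protein disulphide isomerase and subunit of prolyl hydroxylase (618 TPM in replicate 1, 587 TPM in replicate 2), and by the procollagen proteinase Bmp1 (59.0 TPM in replicate 1, 53.9 TPM in replicate 2), and P4hb also serves proteins other than collagen. Of the 15 genes 7 were higher in replicate 1 and 4 in replicate 2 with TMM, and 5 in each with total reads or spike-in reads. Basement membrane genes outside the set summed to 452 TPM in replicate 1 versus 465 TPM in replicate 2, most of it Col18a1 (397 TPM in replicate 1, 394 TPM in replicate 2), the endostatin precursor, which exceeded the sum of the 9 collagens of the set. Agrin (Agrn), a heparan sulphate proteoglycan, followed with 17.3 TPM in replicate 1, against 28.6 TPM in replicate 2, and 2 of 12 genes were higher in replicate 1 and 6 in replicate 2 with TMM, 1 and 7 with total reads and 1 and 8 with spike-in reads.

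Signals that drive stellate cells were low. Of 17 genes of TGF-beta and PDGF signalling 16 were found, 9 of them at 1 TPM or more in both libraries, with a sum of 62.4 TPM in replicate 1 versus 74.7 TPM in replicate 2. The shared mediator Smad4 (23.0 TPM in replicate 1, 26.2 TPM in replicate 2) and the inhibitory Smad7 (6.91 TPM in replicate 1, 8.68 TPM in replicate 2) led the list. Of the 16 genes 3 were higher in replicate 1 and 8 in replicate 2 with TMM, and 1 and 9 with total reads or spike-in reads. Receptors for matrix and for ligands of the set had 8 of 14 genes at 1 TPM or more in both libraries, led by the integrins Itgb5 (52.7 TPM in replicate 1, 46.0 TPM in replicate 2) and Itgb1 (20.8 TPM in replicate 1, 20.3 TPM in replicate 2). Of the 12 tested 5 were higher in replicate 1 and 3 in replicate 2 with TMM, 4 and 3 with total reads and 3 and 3 with spike-in reads. The receptor of Hgf, Met, had 11.7 TPM in both libraries. Of the reelin receptors, Vldlr had 7.70 TPM in replicate 1, against 3.33 TPM in replicate 2, and Lrp8 had 0.07 and 0.09 TPM in replicates 1 and 2. Met, Vldlr and Lrp8 were named as partners of Hgf and Reln, with their values known.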

How the data were processed

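RNA-seq of 2 liver libraries was deposited as gene and transcript tables. Per the notes deposited with them, quantification used mm10 and GENCODE M4. Column names are those of RSEM, but aligner, tool and versions are not given in the sources. The deposited expected counts are estimated reads per gene that need not be whole. The deposited TPM values are divided by effective length and scaled over genes and spike-ins alike. Percent values per isoform, as deposited, give its part of the TPM of its gene. The deposited posterior SD of the count is a score of how far reads are shared with other entries, and it was 0 for all 36 genes. Splice junction and contig files on mm9 were not used.

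GENCODE M21 (GRCm38, the assembly of mm10) gave symbols, coordinates and transcript types by stable identifier, for 42462 of 43346 genes. Promoter and miRNA sequences came from RefSeq tables (GRCm38.p6). Expected counts were rounded and scaled by TMM without spike-ins (edgeR 4.0.16, R 4.3.3); total reads, spike-in reads and DESeq2 1.42.0 size factors were alternatives. Log2 ratios used a prior of 0.5 reads and intervals are exact (Clopper-Pearson, 95%), covering counting error only, as the reads carry no molecular identifiers and need not be independent molecules. The exact binomial test with TMM was tried on simulated counts that held counting error only. The other scalings and edgeR's exact test were not simulated.

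The 36 genes, the 14 gene lists and the alternatives were chosen with earlier results of these data known. All 36 genes are accounted for. Of each list the 2 genes with the highest mean TPM are named, except 1 gene that is not reported here; others are marked as named after their values were seen.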

Additional observations from a re-analysis of the deposited data

How the results depend on the processing

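The count of 20 genes that passed was 16 with total reads, 19 with spike-in reads, 20 with DESeq2 size factors, 19 with a minimum of 1 read, 19 with 100 reads and 20 with genes kept only where the posterior SD was within 1% of the count. With edgeR's exact test and a common dispersion estimated from these same 2 libraries it was 0. The median log2 ratio of the 36 genes changed sign, to -0.072 with total reads and -0.10 with spike-in reads. Single log2 ratios that changed sign were, with total reads, Colec11 (-0.11), Lhx2 (-0.079), Col5a1 (-0.10), Sparc (-0.039), Timp2 (-0.065) and Timp3 (-0.063), and with spike-in reads, Colec11 (-0.14), Pdgfra (-0.0070), Lhx2 (-0.11), Col1a1 (-0.0043), Col5a1 (-0.13), Bgn (-0.00035), Sparc (-0.068), Timp2 (-0.094), Timp3 (-0.092) and Mmp2 (-0.0013). These shifts follow from the scaling itself, which moves all genes together. The summed level of 774 TPM became 657 by length of the longest isoform and 464 without Ecm1. Col6a1 over Col6a2 became 1.91 by longest isoform, against 1.59. Leaving out a replicate gave 752 to 797 for the sum, 0.269 to 0.465, 1.45 to 1.47 and 1.43 to 1.74 for the type I, IV and VI chain ratios, 32 genes at 1 TPM and 11 genes with 1 isoform at 90%. No paired analysis was possible because there is 1 group. Depth limits the lower genes: the 95% interval of Hgf, on 184 and 208 reads, ran from -0.32 to 0.27.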

Other observations

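Red cell genes summed to 1290 TPM in replicate 1 and 2110 TPM in replicate 2, led by the globins Hba-a2 (505 TPM in replicate 1, 747 TPM in replicate 2) and Hbb-bs (395 TPM in replicate 1, 655 TPM in replicate 2). Of these 5 genes 4, all globins, were higher in replicate 2 and 1, Alas2, was higher in replicate 1 by the exact test with TMM. Lymphocyte markers summed to 5.51 TPM in replicate 1 and 11.6 TPM in replicate 2, led by the B cell receptor components Cd79a (1.63 TPM in replicate 1, 4.93 TPM in replicate 2) and Cd79b (1.20 TPM in replicate 1, 3.30 TPM in replicate 2), with 1 of 6 genes higher in replicate 1 and 2 in replicate 2 with TMM, and 1 and 4 with total reads or spike-in reads. Cholangiocyte markers, led by Spp1 (16.2 TPM in replicate 1, 14.4 TPM in replicate 2) and Krt19 (2.18 TPM in replicate 1, 2.09 TPM in replicate 2), had 2 of 5 tested genes higher in replicate 1. Hepatocyte markers were led by Alb and Ttr (9298 TPM in replicate 1, 7671 TPM in replicate 2). Of these 10 genes 9 were higher in replicate 1 and 1 in replicate 2 with TMM. The split was 5 and 4 with total reads and 5 and 5 with spike-in reads. The part of these cell types in the differences of the stellate cell and matrix genes was not tested.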
